A study of Mus musculus with 42 samples.

Results

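The genes of the proteasome were followed through the whole left lungs of 42 mice, on Illumina BeadChip arrays with 1 array per mouse. Members were the genes whose symbol in the array annotation begins with Psma to Psmg followed by a number. This rule found 49 genes with 86 probes, of 19053 named genes and 45281 probes on the array. Each gene was read from its probe of highest mean signal over the 42 arrays.

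All mice were of the 129S2 K-rasLA1 strain, which carries G12D mutant K-ras. In this model the mutant allele is switched on by spontaneous recombination in scattered cells, so a whole lung is a mixture in which the cells with active K-ras are not separated from the rest. The fractionated group (7 males and 7 females) received 5 exposures of 0.2 Gy, the acute group (8 males and 7 females) received 1 exposure of 1 Gy, and the control group (7 males and 6 females) received none. The particles were iron ions (56Fe) of 1 GeV per nucleon, and the lungs were taken 70 days later. The labels state no age for the animals, and the series description counts 13 fractionated animals where 14 arrays carry that label. Groups were taken from the labels, and p-values measure the spread between these animals.

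The proteasome degrades proteins that carry ubiquitin chains. Its core is a stack of rings, in which alpha subunits (Psma genes) form the gate and beta subunits (Psmb genes) include the 3 proteolytic ones, Psmb5, Psmb6 and Psmb7. The cap that binds and unfolds substrates is built from ATPases (Psmc genes) and non-ATPase subunits (Psmd genes), Psmg genes encode chaperones of core assembly, and Psme genes encode alternative activators. Interferon gamma induces Psmb8, Psmb9 and Psmb10, which take the places of Psmb5, Psmb6 and Psmb7, and with them the activator genes Psme1 and Psme2. Cells of the immune system carry much of this immunoproteasome, and its products feed the peptide transporter Tap1 and presentation on MHC class I.

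Psmb9 lies head to head with Tap1, and Psmb8 is its neighbour in the class II region of the MHC on chromosome 17. The promoter windows of Psmb9 and Psmb8 are shown because both genes later varied with Tap1 across lungs, and that of Psmb6 because it encodes the subunit that Psmb9 replaces. The windows run from 250 bases before to 50 bases after the RefSeq gene start in GRCm38.p6. Capitals mark matches, on either strand. The motif GGGCGG is called the GC box. The second, CCAAT, is the box of that name. TTCNNNGAA is the palindrome bound by STAT factors, and TGACNNNGC an element of the kind bound by Nrf2 and its relatives. No matches of different motifs overlap in these windows.
Psmb9, chr17:34187281-34187580, minus strand: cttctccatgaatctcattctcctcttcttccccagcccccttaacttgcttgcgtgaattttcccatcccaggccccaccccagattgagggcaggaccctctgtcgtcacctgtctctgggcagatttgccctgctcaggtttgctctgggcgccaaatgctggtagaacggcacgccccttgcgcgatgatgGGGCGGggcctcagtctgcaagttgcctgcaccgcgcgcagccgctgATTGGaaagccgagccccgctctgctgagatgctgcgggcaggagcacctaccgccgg
Psmb8, chr17:34197945-34198244, plus strand: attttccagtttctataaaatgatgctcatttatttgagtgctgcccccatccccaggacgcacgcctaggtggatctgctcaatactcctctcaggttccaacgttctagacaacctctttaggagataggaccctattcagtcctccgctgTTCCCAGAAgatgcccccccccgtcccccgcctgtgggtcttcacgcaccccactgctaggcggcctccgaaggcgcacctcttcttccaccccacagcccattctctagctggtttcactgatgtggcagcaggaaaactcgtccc
Psmb6, chr11:70525107-70525406, plus strand: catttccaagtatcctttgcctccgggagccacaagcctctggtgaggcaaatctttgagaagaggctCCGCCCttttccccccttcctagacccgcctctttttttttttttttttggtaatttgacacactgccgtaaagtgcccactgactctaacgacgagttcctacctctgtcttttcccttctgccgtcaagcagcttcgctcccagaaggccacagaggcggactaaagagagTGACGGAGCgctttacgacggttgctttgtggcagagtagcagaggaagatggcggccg
The Psmb9 window held a GC box and a CCAAT box, and 275 of its 300 bases lie also in the window of Tap1, on the other strand (chr17:34187306-34187605). The Psmb8 window held a STAT palindrome 97 bases before the start, and the Psmb6 window held a GC box and, 9 bases before the start, the Nrf2-type element. Of the 49 members 41 had a window in the RefSeq promoter table. A GC box was in 23 of these 41 windows (56.1%), against 35.7% of all 32851 promoters of the same length. A motif of the interferon response element was searched as well. The CCAAT box was in 36.6% of the members' windows, against 37.4% of all, the STAT palindrome in 7.32%, against 8.30%, the interferon element in 12.2%, against 3.44%, and the Nrf2-type element in 14.6%, against 12.4%. Among the 5 interferon-inducible members the interferon element was found in the Psme1 window alone and the STAT palindrome in that of Psmb8 alone. These are matches of letters in a short window and no measure of binding.

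Of the 49 genes 41 were tested, meaning that their probe was detected on 13 arrays or more, as many as there were control lungs. Of these 40 were detected on all 42 arrays. The exception was Psmd6, a cap subunit, which was detected on 6 fractionated, 6 acute and 2 control lungs. Psma1, Psma3, Psma6 (alpha ring), Psmc6 (cap ATPase), Psmd3 (cap), Psmg4 (core chaperone) and Psmb11, the beta subunit of thymic epithelium, were detected on no array. Psma8, the alpha subunit of the testis, was detected on 3. Psma1, Psma3, Psma6, Psmc6 and Psmd3 encode parts that every proteasome needs, so their probes give no reading of the genes. The tested set was 4 alpha ring genes, all 7 standard beta genes, 3 inducible beta genes, 3 core chaperones, 5 cap ATPases, 10 cap non-ATPases, 3 cap chaperones and 4 activators. It also held Psmc3ip, a factor of meiotic recombination, and Psme3ip1, which encodes a protein that binds Psme3. Both match the symbol rule and are no subunits. The inhibitor gene Psmf1 had no named probe.

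The lung markers Sftpc, Sftpb, Sftpa1, Scgb1a1, Ager, Hopx, Cdh5 and Pecam1 were detected on all 42 arrays and the ciliated cell marker Foxj1 on 38. Between 16264 and 18289 probes were detected per array. The array of fractionated replicate 13, a female, stood apart: its profile correlated at 0.87 with the median profile of the arrays, against 0.96 to 0.99 for each other array. The main counts and a part of the single results are given with and without it. Arrays lay on 8 slides, of which 7 held all 3 groups. Over the other 41 arrays the share of variance that went with slide had a median of 40.3% among tested members, against 34.2% among all 17927 tested probes.

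Lungs exposed to fractionated iron ions carried slightly more proteasome transcript than control lungs for most subunits, but no member passed the adjusted test. In limma, after Benjamini-Hochberg adjustment over 17927 probes, 0 of 41 members and 0% of all probes were called. At an unadjusted p under 0.05 there were 8 members, all higher in fractionated lungs, where 4.37% of all probes had such a p, 2.1% higher and 2.28% lower. By sign alone 36 of 41 members were higher, against 48.8% of all probes. The median difference of the members was 0.12 on the log2 scale, against -0.0040 for all probes. Without fractionated replicate 13 the counts were 32 of 41 higher (49.9% of all probes) and 6 at an unadjusted p under 0.05 (3.62% of all probes, 2.04% higher), and the median was 0.083. Members of 1 complex share the lung, the array and the slide, so these counts are not of independent genes. In bulk tissue fewer cells of a type and less RNA per cell cannot be told apart.

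The inducible subunit Psmb9 had the smallest p of the members. Its normalized log2 signal had a lowest, median and highest value of 10.04, 10.34 and 11.50 in fractionated lungs, of 10.07, 10.30 and 10.57 in acute lungs and of 9.89, 10.13 and 10.40 in control lungs. The groups overlapped, and the highest fractionated value was that of replicate 13. The mean was 10.44 ± 0.37 in fractionated lungs (SD, n = 14), 10.31 ± 0.15 in acute lungs (n = 15) and 10.13 ± 0.12 in control lungs (n = 13). Fractionated lungs were higher than control lungs by 0.31 ± 0.090 (SE; limma, p = 0.00139, adjusted p = 0.934). Without replicate 13 the difference was 0.23 (p = 0.00114, adjusted p = 1). It was positive on 7 of the 7 slides that held both groups, between 0.027 and 0.47. After slide and sex, group accounted for 26.0% of the variance of Psmb9 over 41 arrays, against a median of 3.47% for the members and 2.08% for all probes. Psmb9 was picked by its p between these groups, so its high share is no separate support.

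Psmb8 and Psmb10, which are induced together with Psmb9 in other settings, showed smaller differences relative to their spread. Psmb8 had values of 10.70, 11.06 and 12.97 (lowest, median and highest) in fractionated lungs, 10.74, 11.07 and 11.35 in acute lungs and 10.66, 11.12 and 11.29 in control lungs. The fractionated minus control difference of Psmb8 was 0.15 ± 0.13, and 0.020 without replicate 13. Psmb10 ran from 11.37 to 12.49 in fractionated lungs with a median of 11.86, from 11.34 to 12.11 in acute lungs with a median of 11.84, and from 11.30 to 12.23 in control lungs with a median of 11.73. Its difference between fractionated and control lungs was 0.14 ± 0.10, and 0.12 without replicate 13.

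The standard catalytic subunits were also a little higher in fractionated lungs. Psmb6, the caspase-like subunit, ran from 11.89 to 12.64 in fractionated lungs with a median of 12.02 and from 11.76 to 12.15 in control lungs with a median of 12.02, and differed by 0.16 ± 0.063 (p = 0.0182, adjusted p = 0.934 in limma). The medians of the groups were thus alike while the upper end of the fractionated group lay higher. Psmb5, the chymotrypsin-like subunit, had a median of 8.55 in fractionated and 8.36 in control lungs, with a difference of 0.19 ± 0.11, and Psmb7, the trypsin-like subunit, of 11.84 and 11.74, with a difference of 0.084 ± 0.063, or 0.047 without replicate 13. All 7 standard beta genes were higher in fractionated lungs, by 0.084 (Psmb7) to 0.34 (Psmb1), and 3 of them had an unadjusted p under 0.05: Psmb6, Psmb4 (0.12 ± 0.047) and Psmb2 (0.14 ± 0.060). These differences include replicate 13, which was the highest of all lungs for each of the 3.

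**Figure D1:**
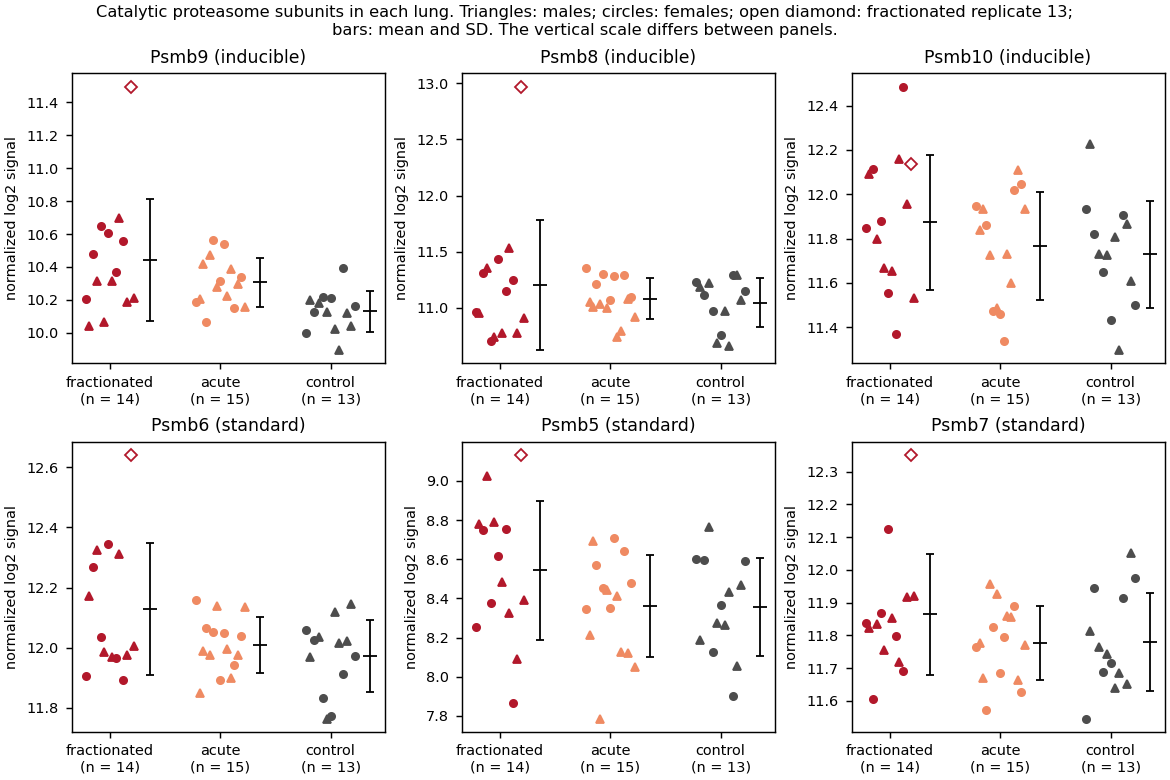
Normalized log2 signal (vertical axes, which differ in range) of the inducible catalytic subunits Psmb9, Psmb8 and Psmb10 (top) and of the standard subunits they replace, Psmb6, Psmb5 and Psmb7 (bottom), in each fractionated (n = 14), acute (n = 15) and control lung (n = 13), with mean and SD. For Psmb9 the means of both irradiated groups (10.44 and 10.31) lie above that of the control lungs (10.13), with overlap, and in 5 of the panels the open diamond of fractionated replicate 13 is above every other lung.

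In the other parts of the complex the differences between fractionated and control lungs were of like size. All 4 alpha ring genes were higher, with a median of 0.065, led by Psma5 at 0.16 ± 0.059 (p = 0.0084, adjusted p = 0.934 in limma). Psma5 had values of 12.40, 12.56 and 13.02 (lowest, median and highest) in fractionated and of 12.18, 12.46 and 12.59 in control lungs. Its highest value was that of replicate 13. Of the 5 cap ATPases 4 were higher, with Psmc5 at 0.14 ± 0.057 (p = 0.0174), and of the 10 cap non-ATPases 9 were higher, with Psmd13 at 0.19 ± 0.090 (p = 0.0456). Among the cap chaperones Psmd9 was higher by 0.25 ± 0.11 (p = 0.0222), on 7 of 7 slides. Psmd13 and Psmd9, too, were at their highest in replicate 13, where Psmc5 had rank 10 from the top. Psmd10, the oncoprotein gankyrin, was higher by 0.14 ± 0.079, and Psmd5 differed by -0.12 ± 0.16. The 3 core chaperones were higher by 0.22 (Psmg2), 0.19 (Psmg1) and 0.12 (Psmg3), and by 0.12, 0.063 and 0.052 without replicate 13. The activators were 2 higher and 2 lower. Psme1 differed by 0.042 ± 0.085 and Psme2 by 0.11 ± 0.082, the nuclear activator Psme3 by -0.14 ± 0.17, and Psme4, the activator PA200, by -0.033 ± 0.070. Psmc3ip differed by 0.21 ± 0.12 and Psme3ip1 by 0.15 ± 0.094, and by 0.11 and 0.089 without replicate 13. Without it Psma4, Psma2, Psmd11 and Psmd1, all near 0, turned sign.

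With slide as a further term in the fit 13 of 41 members had an unadjusted p under 0.05, all higher in fractionated lungs, where 3.53% of all probes were higher at that threshold. With replicate 13 left out as well there were 12, against 3.15% of all probes, and 0 were called at an adjusted p under 0.05 in either fit. Psmb9 differed by 0.32 with the slide term (p = 0.00135, adjusted p = 0.726 in limma) and by 0.23 without replicate 13 (p = 0.000771, adjusted p = 0.83). On values scaled to the median of each array 14 members had such a p, against 4.85% of all probes, and with array quality weights 4, against 3.5%. In males only there were 3, against 2.73%, and in females only 1, against 3.31%.

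**Figure D2:**
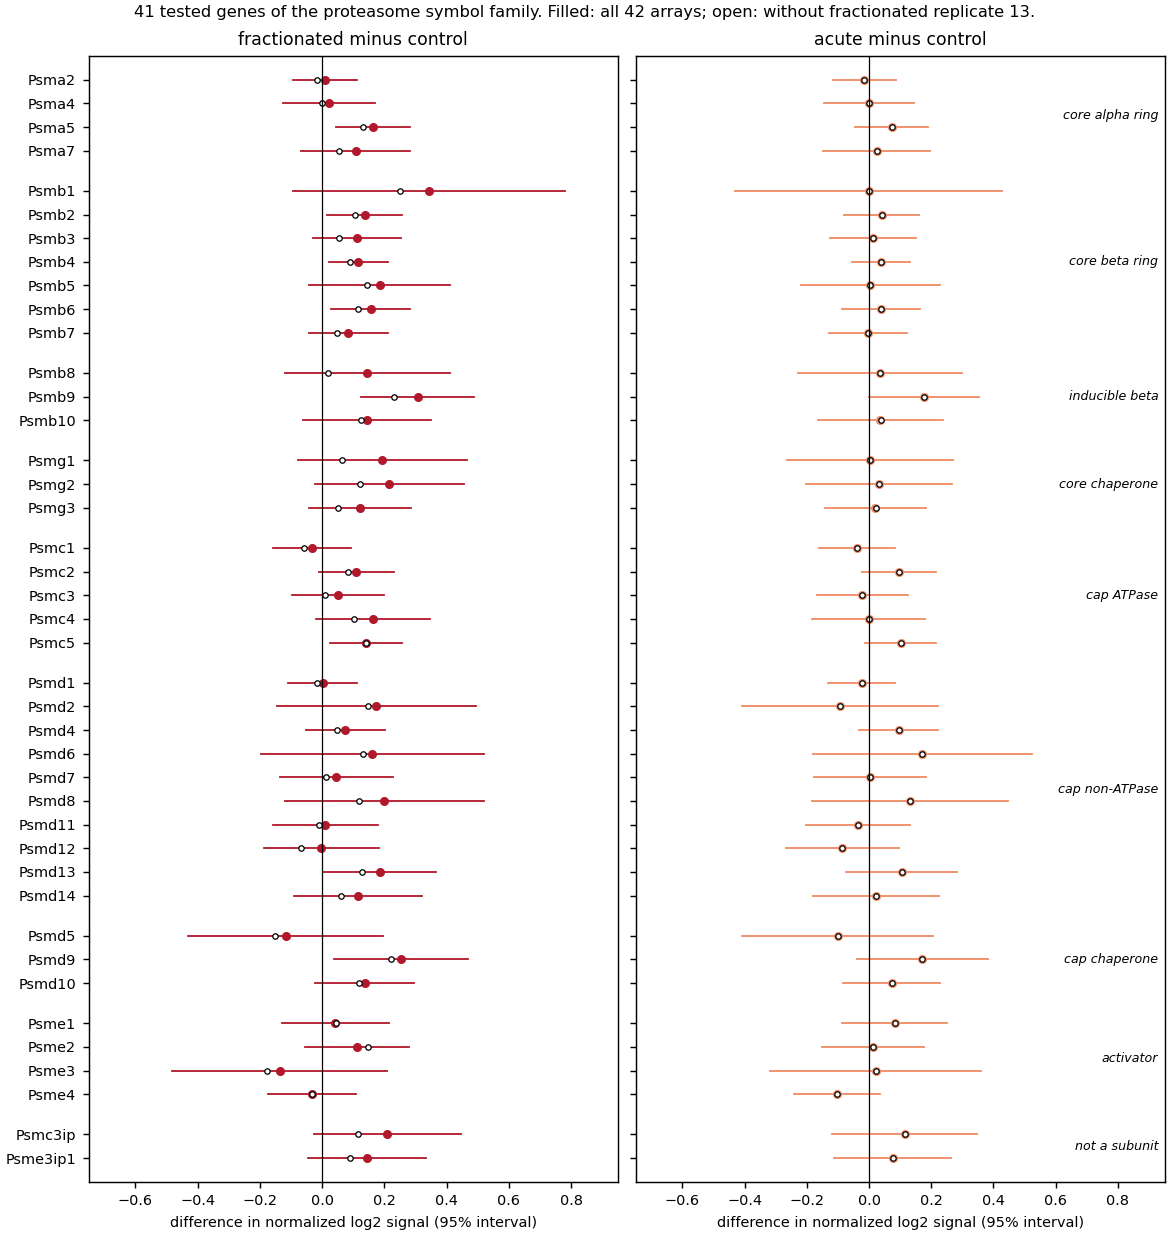
Difference in normalized log2 signal (horizontal axis, with 95% intervals) of fractionated minus control lungs (left) and acute minus control lungs (right) for the 41 tested members, in rows by their part in the complex. Filled points use all 42 arrays and open points leave out fractionated replicate 13. Of the 41 points 36 lie above 0 on the left and 29 on the right, and both panels share the control lungs.

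Lungs that took the same dose in 1 exposure differed less from control lungs. In the acute comparison 29 of 41 members were higher, against 53.3% of all probes, with a median of 0.022, against 0.0075 for all probes. None of the members had an unadjusted p under 0.05 (1.41% of all probes), and 0 were called (limma). With median scaling Psmc5 and Psmb9 had such a p (1.39% of all probes). The 5 smallest p-values belonged to Psmb9 (0.18 ± 0.088, p = 0.0517), Psmc5 (0.10 ± 0.056, p = 0.0797), Psmd9 (0.17 ± 0.11, p = 0.11), Psmc2 (0.095 ± 0.059, p = 0.113) and Psmd4, a ubiquitin receptor of the cap (0.095 ± 0.062, p = 0.135). Their adjusted p was 1. The control lungs are the same as in the fractionated comparison, so that their values enter both. Leaving out replicate 13, which is in neither of these groups, narrowed the shared estimate of the spread, and Psmb9 then had p = 0.00856 in limma at a difference of 0.18 (adjusted p = 1). On 6 of 7 slides Psmb9 was higher in acute than in control lungs.

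The other catalytic genes were near their control level in acute lungs, with differences of 0.035 for Psmb8, 0.037 for Psmb10, 0.0034 for Psmb5, 0.038 for Psmb6 and -0.0035 for Psmb7, each smaller than its SE of 0.062 to 0.13. Psme1 differed by 0.083 ± 0.084, Psme2 by 0.013 ± 0.081 and Psme3 by 0.021 ± 0.17. The standard beta ring had a median of 0.013 in acute lungs with 5 of 7 genes higher.

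Set directly against each other, fractionated lungs exceeded acute lungs for 36 of 41 members (45.4% of all probes), with a median of 0.082. None had an unadjusted p under 0.05 (2.08% of all probes) and 0 were called in limma. On values scaled to the median of each array Psmb4, Psmb6, Psmb2 and Psmc4 had such a p (4 members, 2.1% of all probes), and 0 were called. Without replicate 13 the median was 0.031 and 30 of 41 were higher (47.6% of all probes). The smallest p-values were those of Psmb6 (0.12 ± 0.061, p = 0.0608), Psmc4 (0.16 ± 0.088, p = 0.0687), Psmb4 (0.079 ± 0.045, p = 0.0896), Psmd2 (0.27 ± 0.15, p = 0.0898) and Psmb5 (0.18 ± 0.11, p = 0.102). Psmb9 differed by 0.13 ± 0.086 between the schedules, Psmb8 by 0.11 ± 0.13, Psmb10 by 0.11 ± 0.098 and Psmb7 by 0.088 ± 0.061. Without replicate 13 these were 0.055 for Psmb9, -0.016 for Psmb8, 0.087 for Psmb10 and 0.051 for Psmb7, and in males only Psmb9 differed by -0.045. Psme1, Psme2 and Psme3 differed by -0.041, 0.099 and -0.16. No difference between the schedules passed the test for any member.

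With both irradiated groups joined and set against control lungs, 33 of 41 members were higher, against 50.9% of all probes, with a median of 0.081. At an unadjusted p under 0.05 there were 4 members, all higher, against 2.65% of all probes, of which 1.29% higher, and 0 were called in limma. They were Psmb9 (0.24 ± 0.078, p = 0.00333), Psmc5 (0.12 ± 0.050, p = 0.0186), Psma5 (0.12 ± 0.051, p = 0.0257) and Psmd9 (0.21 ± 0.093, p = 0.0266), with an adjusted p of 0.999. Psmc2 was next (0.10 ± 0.052, p = 0.0545). With median scaling the count was 10, against 3.14% of all probes. In an F test over the 3 groups 5 members had an unadjusted p under 0.05 (2.06% of all probes) and 0 were called. Psmb9 was first at p = 0.00556 (adjusted p = 1), before Psma5, Psmb6, Psmb4 and Psmc5.

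Exchange of a standard for an inducible subunit was described by the difference between the 2 genes in each mouse, set to 0 at the control mean. For Psmb9 minus Psmb6 the mean was 0.16 ± 0.27 in fractionated (SD, n = 14) and 0.14 ± 0.18 in acute lungs (n = 15), with an SD of 0.21 in control lungs (n = 13). Of the fractionated lungs 11 of 14, of the acute lungs 11 of 15 and of the control lungs 6 of 13 lay above the control mean. For Psmb8 minus Psmb5 the mean was -0.033 ± 0.51 in fractionated and 0.033 ± 0.25 in acute lungs, and for Psmb10 minus Psmb7 it was 0.059 ± 0.38 in fractionated and 0.040 ± 0.31 in acute lungs. Without replicate 13 the fractionated mean was 0.12 ± 0.22 for Psmb9 minus Psmb6, -0.12 ± 0.40 for Psmb8 minus Psmb5 and 0.077 ± 0.39 for Psmb10 minus Psmb7 (SD, n = 13). All these means were smaller than 1 SD of the control lungs, which was 0.34 for Psmb8 minus Psmb5 and 0.29 for Psmb10 minus Psmb7.

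Several genes have more than 1 probe, which gives a check on the reading. Of the 19 members with several tested probes, all tested probes of a gene had the same sign in 16 for fractionated against control lungs, in 12 for acute against control lungs and in 12 for males against females. In 0 genes did 2 probes oppose each other with both at an unadjusted p under 0.05. Psmd1, the scaffold of the cap base, was nevertheless uneven: its brightest probe differed by 0.0015 between fractionated and control lungs and the next by -0.0040, while the dimmest of its tested probes differed by 0.26 ± 0.073 (p = 0.000997, adjusted p = 0.934 in limma). The dimmest probe was singled out after its values were seen.

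The genes around the proteasome were read from lists. Of 7 tested proteasome-associated and assembly genes outside the symbol rule all 7 were higher in fractionated than in control lungs, with a median of 0.094 (0.068 without replicate 13) and 0 at an unadjusted p under 0.05. Among them were Pomp, the maturation factor of the core (0.097 ± 0.062), Uchl5, a deubiquitinase of the cap (0.16 ± 0.12), and Sem1, a small subunit of the lid (0.079 ± 0.056). Of 8 regulators of proteasome transcription 3 were higher and 5 lower, with Nfe2l2 (Nrf2) at -0.22 ± 0.13, Mafg at -0.11 ± 0.090 and Maff at -0.18 ± 0.16. Of 11 genes of ubiquitin, its activation and substrate delivery 6 were higher and 5 lower. Ufd1, a cofactor of the segregase p97, differed by -0.22 ± 0.076 (p = 0.00627, adjusted p = 0.934 in limma).

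Of 10 genes of MHC class I presentation 6 were higher and 4 lower in fractionated than in control lungs, with H2-K1 at 0.23 ± 0.15, Tapbpl at 0.12 ± 0.073 and Tapbp at -0.24 ± 0.13. Of 10 genes of interferon gamma signalling 4 were higher and 6 lower (median -0.063), with Jak2 at -0.11 ± 0.055, and Ifng itself was detected on no array. Without replicate 13 the MHC class I list had 8 higher and 2 lower (median 0.055) and the interferon gamma list 5 and 5 (median -0.024). Of 7 Nrf2 targets 2 were higher and 5 lower. The 14 cell cycle genes were all higher, with a median of 0.31, but 11 of 14 and a median of 0.052 without replicate 13, and 0 had an unadjusted p under 0.05 in either fit. In acute lungs 13 of the 14 were higher than in control lungs, with a median of 0.051.

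Markers of other cells were read beside the members, since immune cells are rich in the inducible subunits. Of 5 tested markers of T and NK cells 3 were higher in fractionated than in control lungs (median 0.065), and 0 of 5 without replicate 13 (median -0.13). Their summed log2 signal ran from 9.68 to 14.73 in fractionated lungs (to 10.74 without replicate 13), from 9.71 to 11.07 in acute lungs and from 9.80 to 11.16 in control lungs, and Cd8a was detected on no array. Of 4 macrophage markers 4 were higher in fractionated lungs (median 0.23), with summed signals of 12.79 to 15.17 in fractionated and 12.52 to 14.37 in control lungs, and Siglecf on no array. Of 3 markers of B and plasma cells 0 were higher (median -0.39, and -0.31 without replicate 13), 2 of them lower at an unadjusted p under 0.05 with that lung and 0 without it, with summed signals of 8.84 to 10.91 in fractionated and 9.08 to 11.20 in control lungs, and Ms4a1 and Jchain on no array. Of 6 endothelial markers 0 were higher (median -0.29, and -0.13 without replicate 13). Markers of red cells (3), of heart and skeletal muscle (5) and of adipose tissue (3) were all lower, with medians of -0.85, -0.62 and -0.92, and of -0.63, -0.32 and -0.78 without replicate 13. None of these lists had a member called, and 0% of all probes were called. Of all probes 48.8% were higher in fractionated lungs by any amount, and 2.28% were lower at an unadjusted p under 0.05. The part of cell composition in the differences of the proteasome genes was not tested.

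Between males and females, too, no proteasome gene passed the adjusted test. In limma 0 of the 41 members were called, against 318 probes in all, or 1.77% of those tested. At an unadjusted p under 0.05 there were 5 members, 2 higher and 3 lower in males, where 16.8% of all probes had such a p, 8.93% higher and 7.9% lower. Psmb1, a standard beta subunit without catalytic activity, differed by -0.56 ± 0.17 (males minus females, p = 0.00252, adjusted p = 0.0833). Psmb8 differed by -0.25 ± 0.11 (p = 0.0222, adjusted p = 0.206) and Psmb9 by -0.15 ± 0.072 (p = 0.0382, adjusted p = 0.264). Psmb4 was higher in males by 0.094 ± 0.038 (p = 0.0166, adjusted p = 0.182) and Psmc1 by 0.12 ± 0.050 (p = 0.0229, adjusted p = 0.208). The remaining catalytic genes and activators differed by -0.097 (Psmb5) to 0.068 (Psme3).

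Psmb1 had values of 9.40, 10.45 and 11.45 (lowest, median and highest) in the 22 males and of 9.40, 11.05 and 12.46 in the 20 females. Both sexes thus covered much of the same range, with a higher median in females and the highest value in replicate 13. Without that lung the highest female value was 11.76, the median 10.96, and the difference -0.49 (p = 0.00501, adjusted p = 0.102 in limma). Psmb1 was the member with the widest spread over control lungs, with an SD of 0.68, and sex, entered after slide, accounted for 13.8% of its variance over 41 arrays. Psmb8 had a median of 10.99 in males and 11.22 in females, and Psmb4 of 13.06 in males and 12.97 in females. Without replicate 13 Psmb8 differed by -0.16 (p = 0.0199) and Psmb4 by 0.11 (p = 0.00137), with an adjusted p of 0.191 and 0.0552, where 2.23% of all probes were called. With array quality weights Psmb4 passed the adjusted test (0.11, adjusted p = 0.0336 in limma), where 6.5% of all probes did.

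**Figure D3:**
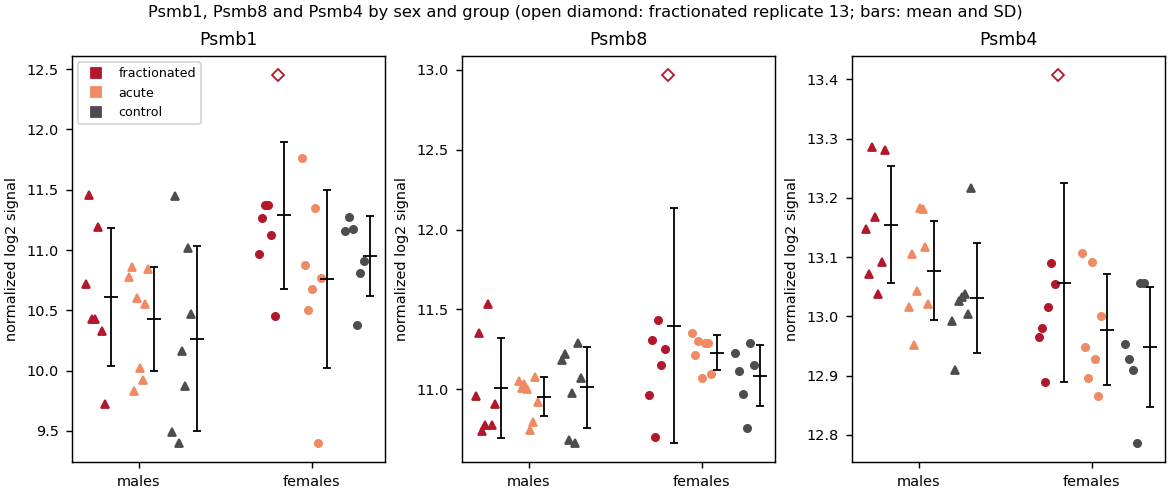
Normalized log2 signal (vertical axes, which differ in range) of Psmb1, Psmb8 and Psmb4 in male (left, 22 lungs) and female lungs (right, 20 lungs), coloured by group, with mean and SD of each group within a sex. Psmb1 spreads from 9.40 upward in both sexes with more high values in females, and the open diamond of fractionated replicate 13 is the highest lung in all panels.

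Other lists differed between the sexes beside these genes. Of all probes 48.7% were higher in males by any amount, and 7.9% were lower at an unadjusted p under 0.05. All 10 genes of MHC class I presentation were lower in males, with a median of -0.12, and 3 had an unadjusted p under 0.05: Calr, Pdia3 and Tap1 (-0.26 ± 0.10, p = 0.0129, adjusted p = 0.163 in limma). Markers of T and NK cells were lower in males in 5 of 5 (median -0.52, and -0.30 without replicate 13), with summed signals of 9.68 to 11.16 in males and 10.08 to 14.73 in females (to 11.07 without replicate 13). The 14 cell cycle genes were lower in males in 14 of 14 (median -0.49, and -0.32 without it). All 4 macrophage markers were lower in males and all 5 markers of heart and skeletal muscle higher (median 1.16). Of 7 Nrf2 targets 6 were higher, and Nqo1 (0.87 ± 0.14, adjusted p = 9.55e-05) and Srxn1 (0.49 ± 0.066, adjusted p = 3.01e-06) passed the adjusted test. Of all probes 1.77% passed it. Among the regulators of proteasome transcription Nfya differed by -0.40 ± 0.12 (adjusted p = 0.0594). The part of these cells in the differences of Psmb1, Psmb8 and Psmb9 was not tested.

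No member showed a response to irradiation that differed between the sexes at an unadjusted p under 0.05 (2.57% of all probes for fractionated and 2.06% for acute exposure). The fractionated minus control difference in males minus that in females was -0.26 ± 0.17 for Psmb9 (p = 0.143) and -0.32 ± 0.27 for Psmb8 (p = 0.241). Their adjusted p in limma was 1. Both differences include fractionated replicate 13, a female. The mean of Psmb9 in fractionated females was 10.62 with it and 10.48 without it, against 10.18 in control females. For Psmb8 these means were 11.40, 11.14 and 11.09.

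In the lung of fractionated replicate 13 most members were above the median of the other lungs, and many were the highest of all lungs. Of the 41 tested members 39 exceeded the median of the remaining 41 arrays and 25 were the highest of all 42, where 23.8% of all tested probes were above and 27.8% below every other array. None of the members was the lowest. The median deviation of the members was 0.53, against -0.11 for all probes. These are values of 1 lung, with no replicate and no test.

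The deviation was uneven over the complex. All 7 standard beta genes and all 3 core chaperones were at their highest in this lung. Psmg1, which pairs with Psmg2 to start the alpha ring, read 10.40, against 8.13 to 8.92 in the other lungs, a deviation of 1.95. Psmg2 stood 1.48 above the median of the others and Psmg3 1.00. Psmb8 read 12.97, against 10.66 to 11.54, a deviation of 1.90, Psmb1 read 12.46, against 9.40 to 11.76, a deviation of 1.68, and Psmb9 read 11.50, against 9.89 to 10.70, a deviation of 1.28. Psmb10 ranked 4 of 42, at a deviation of 0.33. Of the 5 cap ATPases 2 and of the 10 cap non-ATPases 5 were the highest. The lowest deviations were those of 3 activators: Psme2 deviated by -0.42, rank 40 of 42 from the top, Psme1 by -0.0076 and Psme4 by 0.025. The activator Psme3 deviated by 0.57, rank 10. Psmc5 (0.086) and Psmd1 (0.21) followed. Psmc3ip, the recombination factor, deviated by 1.33.

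**Figure D4:**
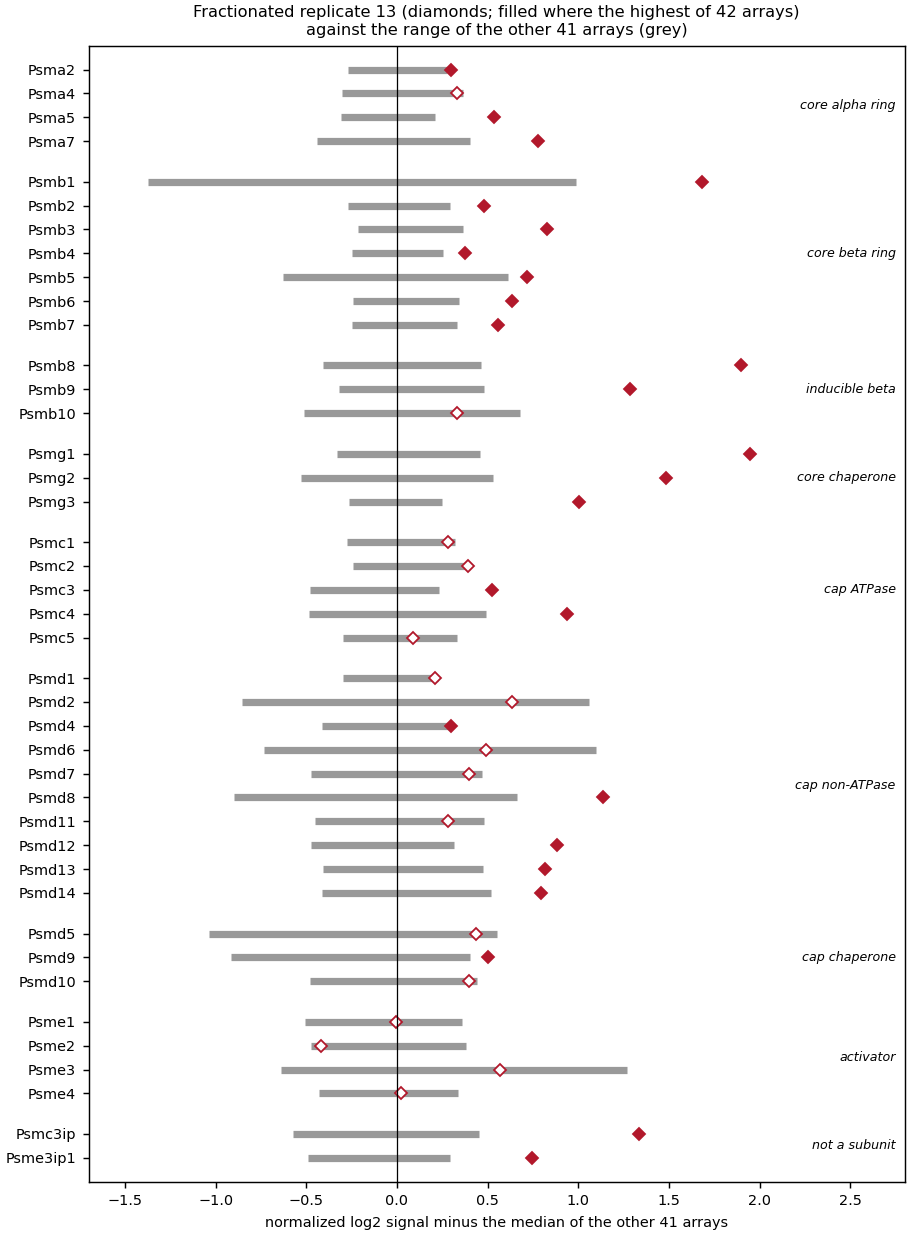
Normalized log2 signal of fractionated replicate 13 minus the median of the other 41 arrays (horizontal axis, diamonds, filled where it is the highest of 42) for the 41 tested members, beside the range of the other 41 arrays (grey bars). The standard beta ring, the core chaperones, Psmb8 and Psmb9 lie beyond the range of all other lungs, while Psme1, Psme2 and Psme4 lie inside it.

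In the same lung all 14 cell cycle genes were the highest of 42, with a median deviation of 3.77, and of 5 markers of T and NK cells 3 were the highest and 2 the lowest, with a median of 4.69 and a lowest deviation of -2.50. Cd3e read 13.32, against 7.62 to 9.48 elsewhere. The lung markers had a median deviation of -0.92, the endothelial ones of -2.04 and those of heart and skeletal muscle of -4.92. The interferon gamma list stood at -0.52 and the MHC class I list at -0.26. Tap1 read 8.55, against up to 8.40 in acute and up to 8.26 in control lungs. Of 6 thymic epithelium genes Psmb11, Foxn1, Krt5 and Prss16 were detected on no array. Of the 2 tested ones 1 was the highest of 42 in this lung (deviation 0.65) and 1 the lowest (-1.17). Of 6 markers of immature T cells 5 were detected on some array. The 1 tested was the highest of 42 in this lung, at a deviation of 0.86.

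Among control lungs most members varied little. The median SD over the 13 control lungs was 0.17 for the members, against 0.28 for all tested probes. The members and all tested probes were not matched for signal level, and its part in this difference was not tested. The least and most variable member by class were Psmb4 (0.10) and Psmb1 (0.68) in the beta ring, Psma2 (0.11) and Psma7 (0.24) in the alpha ring, Psmb9 (0.12) and Psmb10 (0.24) among the inducible genes, and Psmg3 (0.15) and Psmg2 (0.21) among the core chaperones. In the cap they were Psmc2 (0.10) and Psmc3 (0.17) for the ATPases, Psmd1 (0.12) and Psmd2 (0.44) for the non-ATPases, and Psmd10 (0.21) and Psmd5 (0.47) for the cap chaperones. Among the activators Psme4 (0.14) and Psme3 (0.48) marked the ends. Over the 41 arrays of all groups, without replicate 13, slide carried much of the spread of several members. It accounted for 83.7% of the variance of Psmd6, 76.7% of Psmd5, 75.9% of Psme1 and 69.0% of Psme3. The share was 22.6% for Psmb1, 17.2% for Psmb9 and 9.66% for Psmb3. With 8 slides some share arises from their number alone, so these low shares show no clear effect of slide. The mean of Psmd6 per slide ran from 4.87 to 6.17 and that of Psme3 from 9.75 to 10.68.

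Subunits of the complex showed weak correlations from lung to lung. Over 41 arrays, without replicate 13, the median Pearson correlation of the 741 pairs among the 39 tested subunits and chaperones was 0.078, and 58.2% were positive. After the mean of each slide was taken out the median was 0.083, with 66.9% positive. With replicate 13 it was 0.23, and with median scaling 0.14. Within the standard core (55 pairs) the median was 0.11 (0.27 with median scaling), and 0.15 within slides. For the cap (105 pairs) it was 0.11, and 0.11 within slides. Among the 5 inducible genes (10 pairs) it was 0.20, with pairs from -0.52 to 0.54, and 0.31 within slides. The strongest pairs within slides were Psmd10 with Psma5 (0.66), Psma5 with Psmb9 (0.59), Psmb8 with Psmd5 (0.58) and Psmb6 with Psmg1 (0.58). The lowest was Psmb1 with Psme3 (-0.60). Before slide was taken out the lowest pair was Psme1 with Psmd7 (-0.80), which was -0.44 within slides. The points share arrays, slides and the normalization, and these correlations are a description.

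The genes whose pattern over the 41 lungs was most like that of Psmb9 within slides, among 10294 ranked, were H2-Q8 (0.74), H2-Q6 (0.68), Nup210 (0.68), H2-T23 (0.66) and Ptgir (0.63). H2-Q8, H2-Q6 and H2-T23 are MHC class I genes on chromosome 17 with near-identical copies, so their probes may read more than 1 gene. The closest members were Psma5 (0.59) and Psmb8 (0.48). For Psmd1 the closest genes were Dut (0.69), Tomm70a (0.57), Ppp1cc (0.57), Snrpd3 (0.56) and Myl6 (0.56), and Psmd14 (0.54) was the closest member.

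The inducible genes were then set against 3 partner genes over 41 lungs: Tap1 for antigen presentation, Cd3e for T cells and Top2a for dividing cells. Of the 15 relations 7 passed a permutation test of Pearson's r with 100000 draws, two-sided, after Benjamini-Hochberg adjustment over the 15. The test pooled males and females, and also the 3 groups, with no term for sex or group. Psmb8, Psmb9, Tap1 and the tested cell cycle genes were lower in males, and Psmb9 had a higher mean in both irradiated groups than in control lungs. A shared difference between the sexes or between the groups can thus enter these relations and their p-values. The part of either was not tested. Psmb9 and Tap1, which share their promoter window, had r = 0.57 (adjusted p = 0.0021) and Spearman's rho of 0.57 (adjusted p = 0.00112). Within slides r was 0.51 (adjusted p = 0.0034), and without the 2 lungs farthest from the median of Tap1 it was 0.54. For values within slides the slide means were taken out and the remainders permuted over all 41 lungs. Those p-values therefore make no allowance for the slide means and may be too small. Psmb8 and Tap1 had r = 0.43 and rho = 0.45 (adjusted p of 0.0159 and 0.0156), and 0.64 within slides (adjusted p = 7.5e-05, from the smallest p that 100000 permutations can give). Without the 2 farthest lungs that r was 0.36.

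Psmb8 and Top2a had r = 0.52 (adjusted p = 0.0048) and rho = 0.56 (adjusted p = 0.00112) over the 41 lungs. The value within slides was 0.65 (adjusted p = 7.5e-05, from that same smallest p), and 0.45 without the 2 farthest lungs. Psmb9 and Top2a had r = 0.50 and rho = 0.42 (adjusted p of 0.00485 and 0.0274), and 0.45 within slides (adjusted p = 0.0116). Psme1 and Tap1 had r = 0.45 and rho = 0.39 (adjusted p of 0.0126 and 0.0372), but 0.32 within slides (adjusted p = 0.0902). With Cd3e, r was 0.36 for Psmb8 and for Psmb10 (adjusted p = 0.0433 for both), while rho had an adjusted p of 0.0421 for Psmb8 and 0.157 for Psmb10. Within slides these were 0.27 (adjusted p = 0.167) and 0.20 (adjusted p = 0.312). Psmb9 and Cd3e had r = 0.15 (adjusted p = 0.486), and Psmb10 had r = 0.064 with Tap1 (adjusted p = 0.693). Psme2 had no relation that passed, with r of 0.11 to 0.23.

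**Figure D5:**
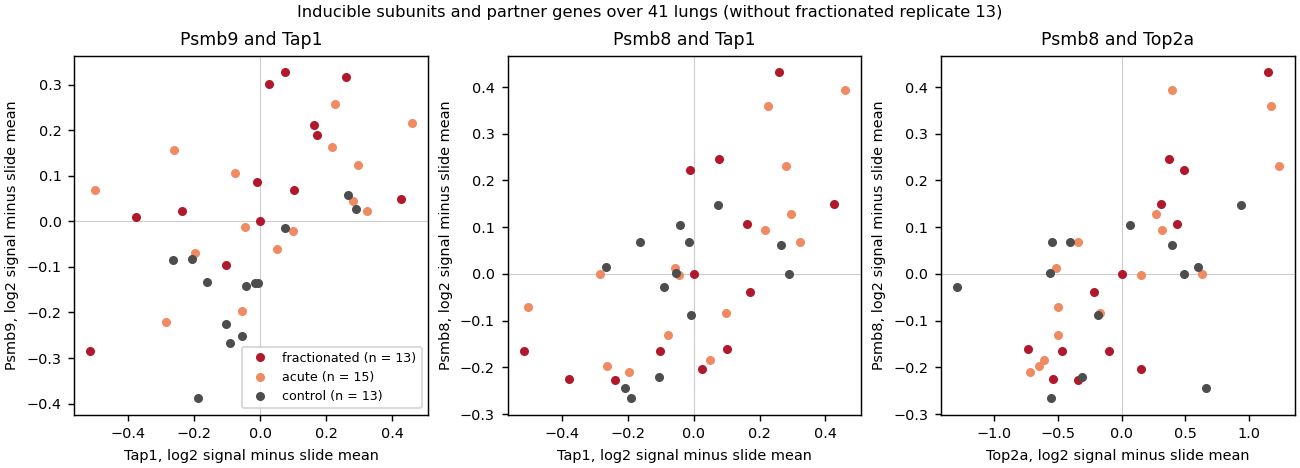
Normalized log2 signal minus the slide mean for Psmb9 against Tap1 (left), Psmb8 against Tap1 (middle) and Psmb8 against Top2a (right) in 41 lungs, coloured by group (13 fractionated, 15 acute and 13 control). The points run upward in all 3 panels (r = 0.51, 0.64 and 0.65), and the single array of 1 slide sits at the origin. In the left panel most control lungs lie below 0 on the Psmb9 axis. They reach 0.057 there, where fractionated lungs reach 0.33. In the middle and right panels lungs of each group lie on both sides of 0.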

How the data were processed

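Total RNA of 42 whole left lungs was measured on Illumina BeadChips, per the labels. The authors' deposited table holds, per the file headers, a mean signal intensity and a detection p-value for each probe and array, with no normalization. A further deposited table holds log2 values that the authors had normalized so that sorted columns differ by at most 0.01; its 41 filled columns each have a median of 3.96. Scale was read from the data (deviations followed the log2 signals with a slope of 1.17), and no source used here gives the background step or the software. In that table fractionated replicate 13 has no values.

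Signals were corrected and normalized with neqc in limma 3.58.1 under R 4.3.3 (background inferred from the detection p-values, offset 16, quantile, log2). Probes with a detection p under 0.01 on at least 13 arrays were tested, 17927 in all. The limma model had group and sex, moderated variances with a trend, two-sided p-values and Benjamini-Hochberg adjustment over all tested probes. A call is an adjusted p under 0.05. The interval of a typical probe reached 0.25 to either side, which the number of arrays limits. Symbols came from the platform annotation, updated through RefSeq genes of GRCm38.p6: 34885 probes had 1 symbol, 18 several and 10378 none here. The limma fit was tried on simulated log2 values with independent noise and no slide effect. Normalization, the detection filter and the permutation tests were not tried in this way.

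The members, the gene lists and the rule for named genes were chosen with earlier results of these data known. Named are the catalytic and Psme1 to Psme3 genes, the 5 members of smallest p per comparison, the extremes of replicate 13 and of the control spread, up to 3 genes per list, and the nearest genes of Psmb9 and Psmd1. Psma1, which the rule also names, had no tested probe. Alternatives covered background, normalization, the deposited table, filters, slide, sex, array weights, probes per gene and the array that stands apart.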

Additional observations from a re-analysis of the deposited data

Results flagged for a closer look

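Psma8, the alpha subunit of testis proteasomes, was left out of every comparison because its probe was detected on only 3 arrays. These were 2 fractionated lungs, 1 acute lung and 0 of the 13 control lungs. In fractionated replicate 13, a female, its normalized log2 signal was 7.11, against at most 5.65 in the control lungs and at most 5.70 in all 41 other lungs. The second probe of the gene was detected on that array alone, at 7.04, against at most 4.99 elsewhere. It is given here because a signal appeared in data that no comparison used, above its level in every control lung. It is 1 array, and its cause was not tested.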

How the results depend on the processing

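Of the settings tried, none gave a called member between groups of irradiation, and the median of the members stayed between 0.072 and 0.18 for fractionated, and between 0.020 and 0.041 for acute, against control lungs. The number of members at an unadjusted p under 0.05 for fractionated against control lungs was 14 with median scaling, 13 with slide as a block, 4 with array quality weights, 3 in males only and 1 in females only, where fewer arrays enter. Psmb4 was called between males and females with array quality weights (1 member, where 6.5% of all probes were called). The median interaction of sex with fractionated exposure was -0.016, and 0.063 in the deposited table, 0.060 without fractionated replicate 13 and 0.054 with array quality weights. The median correlation among subunits was 0.23 with replicate 13 and 0.14 with median scaling, against 0.078. With median scaling the members at an unadjusted p under 0.05 were 2 for acute against control, 4 for fractionated against acute and 10 for irradiated against control lungs. Of the 15 correlations with partner genes 4 passed within slides, 4 with median scaling and 2 without the 2 farthest arrays, against 7.

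Signs turned in several settings, mostly of small differences; Psmd2 (0.17 for fractionated against control lungs) was -0.056 in females only. Of the 41 members, 7 turned with array quality weights for fractionated against control lungs, 6 in males only, 6 in females only, 4 without replicate 13, 3 with median scaling and 2 with slide as a block. For fractionated against acute lungs 9, 8, 6, 6, 3 and 2 turned in that order. For acute against control lungs 3, 13, 4, 0, 6 and 7 members turned in the same order. Among the catalytic genes and Psme1 to Psme3, those for fractionated against acute lungs were Psmb8 without replicate 13 (-0.016), also with slide as a block (-0.033), and with array quality weights (-0.041), Psmb9 in males only (-0.045), Psme2 in females only (-0.046), and Psme1 with array quality weights (0.0029), median scaling (0.0018) and slide as a block (0.011). For fractionated against control lungs they were Psmb8 with array quality weights (-0.023) and in males only (-0.0058), Psme1 in males only (-0.010) and Psme3 in females only (0.094). For acute against control lungs they were Psmb7 with median scaling (0.031), with the mean of all probes (0.029) and in males only (0.046), Psmc2 with the mean of all probes (-0.027), and Psmb5 and Psme3 with slide as a block (-0.011 and -0.047), also without replicate 13 (-0.011 and -0.049). In males only Psmb5 (-0.12), Psmb6 (-0.015), Psmb8 (-0.058), Psme2 (-0.044) and Psme3 (-0.18) turned. Among correlations, Psme2 with Cd3e was -0.0091 within slides and -0.20 with replicate 13, Psmb10 with Top2a 0.092, Psme2 with Tap1 -0.020 and Psme2 with Top2a -0.13 with replicate 13, and Psme1 with Cd3e 0.043 without the 2 farthest arrays. The cause of these shifts was not tested. No paired analysis was possible because the labels give no replicate numbers that the groups share; slide, which held all 3 groups on 7 of 8, served as a block instead. Depth is not defined for arrays; probes near background, such as that of Psmd6, are limited by it.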
